A study of Homo sapiens with 13 samples.

Results

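The genes of the proteasome were followed across the 4 groups of a microarray series on FK866 resistance in T cell leukemia cells. They were chosen by name only, as every gene of the array whose name starts with PSM, a letter from A to G and a digit. This gave 49 of the 25940 gene names on the array. Of these, 48 had a probe that passed the filter on dim signals and were tested among 17597 genes. By their known roles, 8 were core alpha subunits, 7 constitutive core beta subunits, 3 immunoproteasome subunits, 6 ATPases and 11 non-ATPase subunits of the regulatory particle, 5 activators or inhibitors, and 7 assembly factors. PSMC3IP also matched the name, but it encodes a meiotic recombination factor and is not part of the proteasome. The gene that did not pass, PSMB11, encodes the beta subunit of the thymoproteasome, which is known from cortical thymic epithelium. Its 2 probes were well above background on 7 and 4 of the 13 arrays.

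CCRF-CEM cells, an established human line from a T cell acute leukemia, were profiled as parental cells (CEM PA) and as a population selected by slowly raised FK866 until it resisted 100 nM (CEM RES). FK866 inhibits NAMPT, the enzyme that recycles nicotinamide into NAD+. Total RNA was put on Agilent Human GE arrays with 1 dye, from CEM PA after mock treatment with DMSO (n = 3) or 5 nM FK866 for 48 h (n = 2), and from CEM RES after mock treatment (n = 4) or FK866 (n = 4). Both lines received the same 5 nM dose. By the study's methods CEM RES were kept in 100 nM FK866 in culture, so their mock arrays are not of cells naive to the drug, and the number of clones in the population is not given.

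The proteasome degrades proteins tagged with ubiquitin. Alpha rings gate a barrel whose beta rings hold the proteolytic sites, and a regulatory particle of ATPases and non-ATPase subunits binds, deubiquitinates and unfolds the substrates. Interferon gamma and cells of the immune system replace the constitutive catalytic subunits PSMB6, PSMB7 and PSMB5 by PSMB9, PSMB10 and PSMB8, which makes the immunoproteasome. Transcription of the constitutive genes is known to be raised as a set by the factor NFE2L1 when proteasome activity falls.

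Every one of the 48 tested genes was well above background on all 13 arrays in the probe that stood for it, and 0 spots were saturated. Values are log2 signals after quantile normalization over the arrays, so they give each RNA relative to the others on its array. In such bulk RNA, fewer cells of a type and less RNA per cell cannot be told apart. Between 26457 and 33239 of the 43118 spots that were not controls were well above background per array. Spots flagged as outliers numbered 773 on mock CEM RES replicate 1 and 195 to 344 on the other arrays. All 10 T lineage markers examined were well above background on every array. Among 10 markers of other cell types on the array, EPCAM and COL1A1 were well above background on none, and 6 were well above it on all arrays. The CEM RES arrays were scanned in 1 session and the CEM PA arrays in 2 others, so that line and scan session cannot be told apart. Arrays labelled as biological replicates are taken as such, with no further detail on the cultures.

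Between the mock-treated lines, proteasome genes differed in part. Of the 48 genes, 14 were higher and 2 lower in CEM RES at an adjusted p below 0.05, which is 33.3% of them. Over all genes tested, 47.7% were called in this comparison, 24.7% as higher and 23.0% as lower, so the share of proteasome genes called was under the background. The median log2 difference was 0.25 for the proteasome genes and 0.04 for all genes, and 31 of 48 lay above 0. The median absolute log2 difference was 0.31 against 0.55 for all genes. By the methods' double threshold, an absolute log2 fold change over 0.75 with an unadjusted p below 0.05, 5 genes passed, all higher (10.4%, background 34.6%). Arrays of the 2 groups did not overlap in 19 genes (39.6%, background 48.9%). Scaling each array to its 75th percentile moved the median difference of all genes from 0.04 to 0.16 and that of the proteasome genes from 0.25 to 0.27. It gave 16 higher and 2 lower, so that 88.9% of the proteasome genes called were higher. Of all genes called, 58.1% were higher under this scaling and 51.9% in the main fit.

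**Figure D1:**
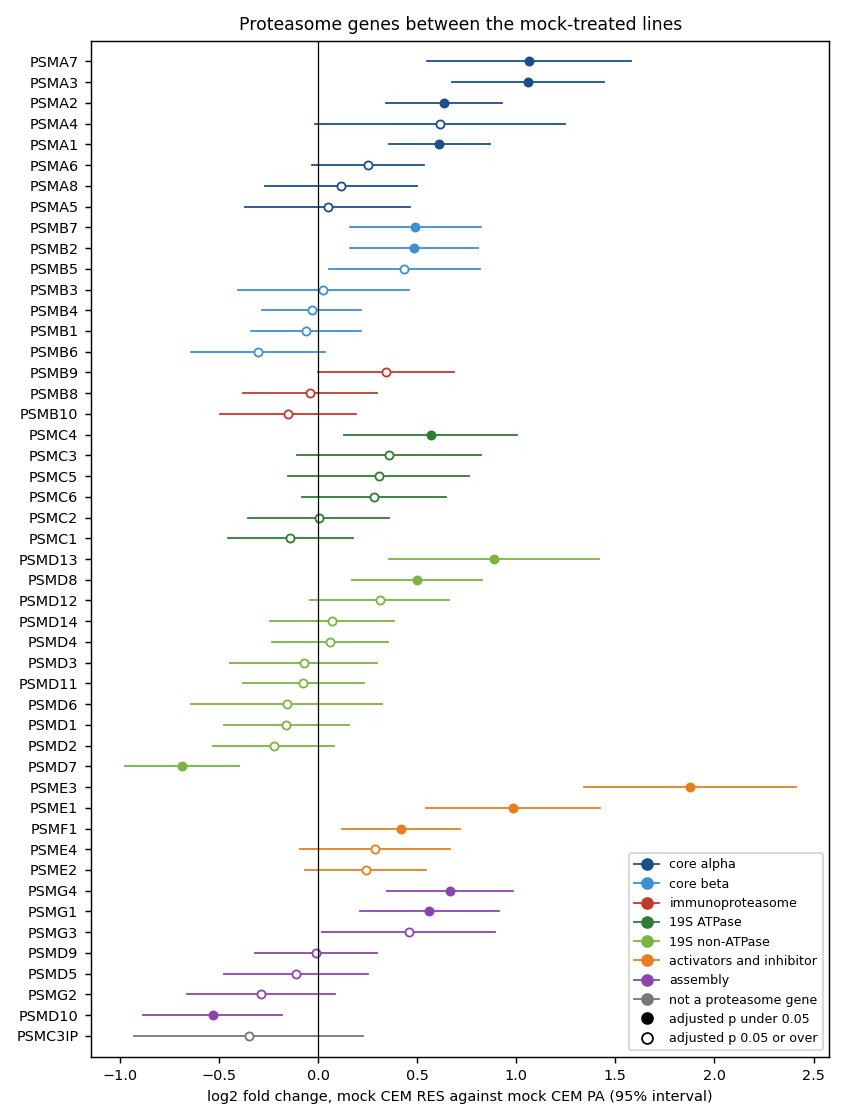
log2 fold change of each of the 48 tested genes between mock-treated CEM RES (n = 4) and mock-treated CEM PA (n = 3), with the 95% interval of the limma fit, coloured by role and filled where the adjusted p was below 0.05. The 8 alpha subunits all lie right of 0, PSME3 lies farthest right at 1.88, and PSMD7 farthest left at -0.69.

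PSME3 had the largest difference of all these genes. It encodes PA28 gamma, a nuclear activator that caps the core particle and is linked to degradation without ubiquitin. Its log2 signal was 10.30, 10.06 and 9.67 on the mock CEM PA arrays and 11.43, 11.96, 12.13 and 12.02 on the mock CEM RES arrays. The lowest CEM RES array thus lay above the highest CEM PA array. The difference was 1.88 ± 0.25 (SE), or 3.67-fold, with an adjusted p of 9.7e-05. With FK866 the 2 CEM PA arrays stood at 10.10 and 10.09 and the CEM RES arrays at 11.32, 12.32, 12.02 and 11.71, again without overlap.

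PSME1, a subunit of the PA28 alpha-beta activator that interferon gamma is known to induce, was 1.98-fold higher in mock CEM RES. The mock CEM PA arrays lay at 9.94, 9.90 and 9.86 and the mock CEM RES arrays at 10.89, 10.86, 10.95 and 10.84, a log2 difference of 0.99 ± 0.20 (SE) with an adjusted p of 0.0018. The arrays of each group lay close together and the groups did not overlap. Its partner PSME2, the beta subunit of the same activator, had a log2 difference of 0.24 ± 0.14 (SE) and an adjusted p of 0.18. PSME2 was far brighter, with means of 16.36 in mock CEM PA and 16.60 in mock CEM RES. Those of PSME1 were 9.90 and 10.88, and how well its only probe reads its RNA was not tested. PSMF1, an inhibitor that blocks access to the core, was higher by 0.42 (adjusted p = 0.024), a call lost without CEM PA mock replicate 3 (0.104) or CEM RES mock replicate 1 (0.0548), and PSME4, the activator PA200, had a difference of 0.29 that was not called. In this class 3 of 5 were called, all higher, where 47.7% of all genes were called, and all 5 differences lay above 0. A second, dimmer probe of PSME4 turned its direction, with -0.81 (adjusted p = 0.00078).

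Of the alpha subunits, 8 of 8 lay above 0 with a median of 0.61. Of the 8, 4 were called, beside 47.7% of all genes. PSMA7 and PSMA3 led with 2.09-fold and 2.08-fold. PSMA3 stood at 13.35, 13.80 and 13.25 in mock CEM PA and at 14.29, 14.66, 14.73 and 14.42 in mock CEM RES, a log2 difference of 1.06 ± 0.18 (SE) with an adjusted p of 0.00048. PSMA7 stood at 14.09, 14.86 and 14.46 against 15.65, 15.68, 15.68 and 15.13, with a difference of 1.06 ± 0.24 (SE) and an adjusted p of 0.0030. PSMA1 and PSMA2 were higher by 0.61 and 0.63. PSMA4 had a difference of similar size, 0.61, that was not called (adjusted p = 0.099). Its mock CEM RES replicate 1 stood at 13.67 and the other mock CEM RES arrays from 14.73 to 15.12, with mock CEM PA up to 14.13. PSMA8, a testis-specific form of an alpha subunit, had a difference of 0.11 (adjusted p = 0.62), and PSMA5 (0.05) and PSMA6 (0.25) were not called either.

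Of the constitutive beta subunits, PSMB2 and PSMB7 were higher in mock CEM RES and the other 5 were not called. Over all genes 47.7% were called. PSMB1, PSMB3 and PSMB4, subunits without a proteolytic site in the mature ring, had differences of -0.06, 0.03 and -0.03. PSMB2, a structural subunit of the beta ring, stood at 14.27, 13.93 and 13.87 against 14.43, 14.36, 14.65 and 14.59, a log2 difference of 0.48 ± 0.15 (SE, adjusted p = 0.018). Of the 3 constitutive proteolytic subunits, PSMB7 and PSMB5 lay above 0 and PSMB6 below, and only PSMB7 was called. PSMB7, which carries the trypsin-like site, stood at 14.84, 15.05 and 14.63 in mock CEM PA and at 15.32, 15.30, 15.57 and 15.14 in mock CEM RES, without overlap, a difference of 0.49 ± 0.15 (SE, adjusted p = 0.019). The calls of PSMB2 and PSMB7 were lost without CEM PA mock replicate 3 (adjusted p = 0.0698 and 0.0813), that of PSMB2 also without CEM PA mock replicate 2 (0.0642) and that of PSMB7 without CEM RES mock replicate 3 (0.0502). PSMB5, the chymotrypsin-like subunit and main target of bortezomib, stood at 14.27, 13.92 and 13.90 against 14.33, 14.37, 14.80 and 14.36, also without overlap. Its difference of 0.44 ± 0.18 (SE) had an adjusted p of 0.058. PSMB6, the caspase-like subunit, stood at 16.17, 15.86 and 15.74 against 15.46, 15.76, 15.77 and 15.48. Its difference of -0.30 ± 0.16 (SE) had an adjusted p of 0.13.

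None of the 3 immunoproteasome subunits was called between the mock lines, with 0 of them at an adjusted p below 0.05 and 1, PSMB9, at an unadjusted p of 0.0497. PSMB9 stood at 14.04, 14.41 and 14.32 in mock CEM PA and at 14.82, 14.37, 14.69 and 14.52 in mock CEM RES, a log2 difference of 0.34 ± 0.16 (SE) with an adjusted p of 0.091. PSMB10 stood at 15.60, 16.09 and 15.45 against 15.73, 15.51, 15.60 and 15.38, a difference of -0.15 with a 95% interval from -0.50 to 0.19. PSMB8 stood at 13.14, 13.06 and 12.70 against 12.95, 12.80, 13.13 and 12.83, a difference of -0.04 with a 95% interval from -0.38 to 0.30. In each of the 3 genes the arrays of both lines overlapped. In this comparison 47.7% of all genes were called. The intervals leave room for differences of up to 0.69 in PSMB9. Set by pairs, PSMB6 differed by -0.30 and its counterpart PSMB9 by 0.34. PSMB7 and PSMB10 differed by 0.49 and -0.15, and PSMB5 and PSMB8 by 0.44 and -0.04. The balance within a pair, which an exchange of subunits would shift, was not tested. Across the 13 arrays the genes whose log2 signal went most with PSMB8 were PSMD3 (Pearson correlation 0.71), PSMA8 (0.63) and PSMC2 (0.56), a description over arrays that share their groups.

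**Figure D2:**
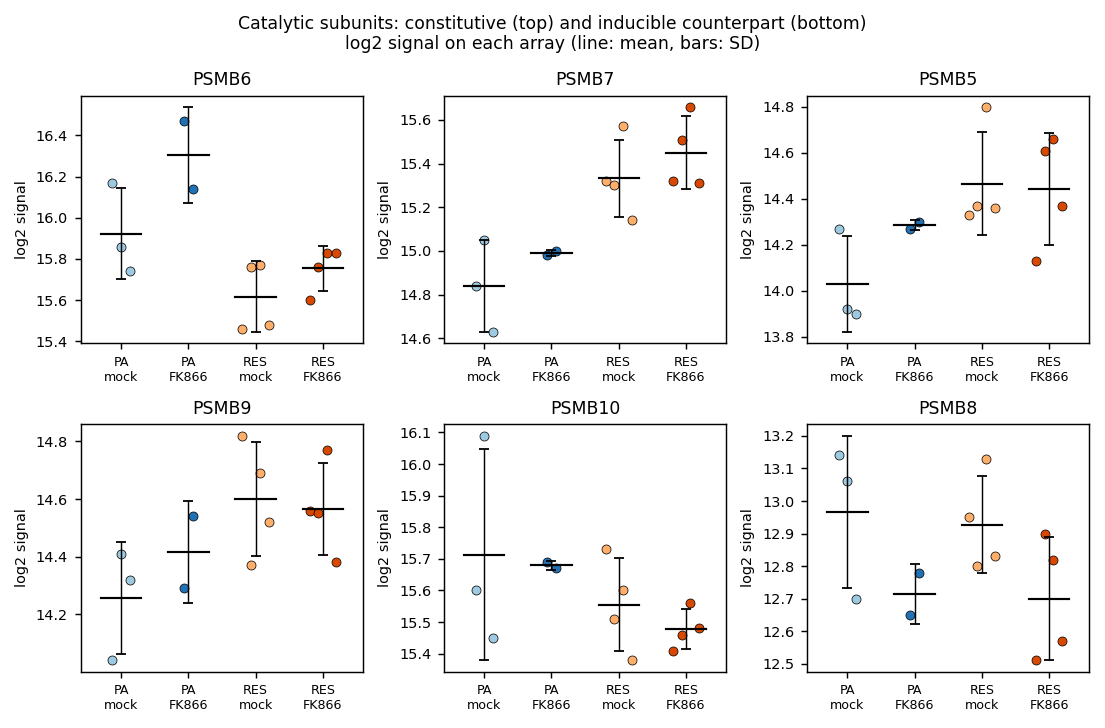
log2 signal of the 3 constitutive proteolytic subunits (top) and of the immunoproteasome subunit that replaces each (bottom) on the 13 arrays, 1 point per array, with mean and SD of each group. Only PSMB7 has mock CEM RES arrays that all lie above the mock CEM PA arrays by an amount that was called. Each panel has its own scale.

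The regulatory particle was uneven, in a comparison where 47.7% of all genes were called. Among its 6 ATPases, which form the ring that unfolds substrates, only PSMC4 was called, at 12.92, 12.76 and 12.72 in mock CEM PA and 13.05, 13.11, 13.80 and 13.52 in mock CEM RES (log2 difference 0.57 ± 0.20 SE, adjusted p = 0.034). Its call was lost without any 1 of 4 arrays, CEM PA mock replicates 2 and 3 and CEM RES mock replicates 3 and 4 (adjusted p from 0.0782 to 0.0932). PSMC3 followed with 0.36 ± 0.21 (SE, adjusted p = 0.19), and PSMC1, PSMC2, PSMC5 and PSMC6 had -0.14, 0.0019, 0.31 and 0.28. Among the 11 non-ATPase subunits, PSMD13 and PSMD8 were higher and PSMD7 was lower. PSMD13, a scaffold subunit of the lid, stood at 12.75, 12.58 and 12.32 against 13.15, 13.34, 13.96 and 13.30, a difference of 0.89 ± 0.24 (SE, adjusted p = 0.010). PSMD8, another lid subunit, was higher by 0.50 (adjusted p = 0.017), a call lost without CEM PA mock replicate 1 (0.0726). The other 8, PSMD1, PSMD2, PSMD3, PSMD4, PSMD6, PSMD11, PSMD12 and PSMD14, were not called and ran from -0.22 to 0.31.

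PSMD7, the partner of the deubiquitinase PSMD14 in the lid, was the gene with the lowest value. It stood at 14.32, 14.63 and 14.58 in mock CEM PA and at 13.80, 13.82, 13.98 and 13.69 in mock CEM RES. This was 1.61-fold lower (log2 difference -0.69 ± 0.13 SE, adjusted p = 0.0013). With FK866 the CEM PA arrays stood at 14.73 and 15.03 and the CEM RES arrays at 13.76, 13.84, 13.84 and 13.76. PSMD14 itself had a difference of 0.07 between the mock lines (adjusted p = 0.71).

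Assembly factors split as well, again beside 47.7% of all genes called. PSMG4 and PSMG1, chaperones that act in building the alpha ring, were higher in mock CEM RES by 0.67 ± 0.15 and 0.56 ± 0.16 (SE, adjusted p = 0.0029 and 0.013). PSMG4 stood at 11.62, 12.12 and 11.68 against 12.67, 12.42, 12.47 and 12.33, and PSMG1 at 14.18, 14.38 and 14.00 against 14.77, 15.04, 14.57 and 14.60. PSMD10, the ATPase chaperone also known as gankyrin, was lower, with a difference of -0.53 (adjusted p = 0.017). Without CEM PA mock replicate 1 the call of PSMD10 was lost (0.0756), and without CEM PA mock replicate 3 that of PSMG1 (0.0557). PSMG2 (-0.29), PSMG3 (0.46), PSMD5 (-0.11) and PSMD9 (-0.01) were not called. PSMC3IP, the gene that shares only the name, had a difference of -0.35 (adjusted p = 0.30), with 1 mock CEM RES array at 9.60 and the other 3 from 10.65 to 10.89.

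**Figure D3:**
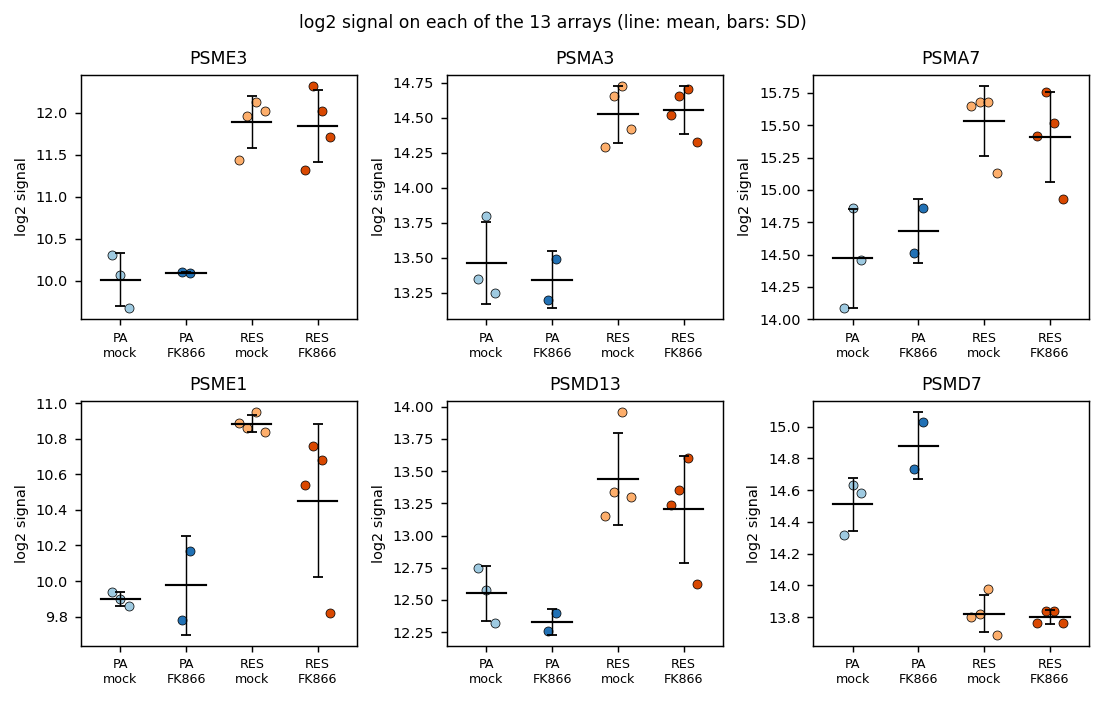
log2 signal of the 5 genes past the double threshold between the mock lines and of PSMD7, the gene that was lowest in CEM RES relative to CEM PA, on the 13 arrays, with mean and SD of each group. Mock CEM RES arrays lie apart from mock CEM PA arrays in all 6 panels. Replicate 4 of CEM RES with FK866 is the lowest of its group in PSMA3, PSMA7, PSME1 and PSMD13.

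Promoter sequences of the genes that led these differences are shown for their letters. Bases come from RefSeq's annotation of GRCh38.p14, the 250 bases before the start of the transcript on the strand of the gene, and the probes of the array were placed by its design on hg19. Capitals mark 2 motifs looked for on both strands: CCAAT, the box of the factor NF-Y, which reads ATTGG on the other strand, and TGACNNNGC, the core of the antioxidant response element that NFE2L1 binds with small MAF proteins, which reads GCNNNGTCA on the other strand. No marked motifs overlap in the sequences shown. PSME3 lies at chr17:42833147-42833396 (+), PSMA3 at chr14:58244593-58244842 (+), PSME1 at chr14:24135944-24136193 (+) and PSMD7, the gene lower in CEM RES, at chr16:74296564-74296813 (+).
PSME3: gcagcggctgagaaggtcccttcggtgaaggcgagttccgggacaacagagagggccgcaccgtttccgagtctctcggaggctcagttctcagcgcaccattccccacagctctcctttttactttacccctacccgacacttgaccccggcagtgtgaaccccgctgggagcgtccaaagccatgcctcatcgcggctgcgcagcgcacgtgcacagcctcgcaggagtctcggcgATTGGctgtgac
PSMA3: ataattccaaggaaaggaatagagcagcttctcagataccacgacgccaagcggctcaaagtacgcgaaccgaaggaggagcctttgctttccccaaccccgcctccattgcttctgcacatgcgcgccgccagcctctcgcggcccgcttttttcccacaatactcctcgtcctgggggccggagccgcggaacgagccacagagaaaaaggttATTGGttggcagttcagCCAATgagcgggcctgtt
PSME1: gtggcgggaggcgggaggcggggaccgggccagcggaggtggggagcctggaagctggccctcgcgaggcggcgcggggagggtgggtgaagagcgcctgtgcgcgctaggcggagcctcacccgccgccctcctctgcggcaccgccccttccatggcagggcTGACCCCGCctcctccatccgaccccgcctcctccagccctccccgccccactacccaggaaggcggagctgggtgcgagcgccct
PSMD7: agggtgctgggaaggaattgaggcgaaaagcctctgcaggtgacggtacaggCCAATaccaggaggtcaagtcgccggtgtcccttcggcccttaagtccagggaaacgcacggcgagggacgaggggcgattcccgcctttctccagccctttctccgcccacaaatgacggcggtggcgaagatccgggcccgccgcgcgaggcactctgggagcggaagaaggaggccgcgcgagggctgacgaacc
In windows that also take in the first 50 transcribed bases, 41 proteasome genes had an entry, and PSMA7, PSMB1, PSMB6, PSMB7, PSMD4 and PSMG3 had none. TGACNNNGC was found in 15 of the 41 (36.6%) and in 16.1% of the 27305 coding and non-coding genes of the table. It was found in 3 of the 12 genes that were higher in mock CEM RES (PSMC4, PSME1 and PSMG1), in 0 of the 2 that were lower and in 12 of the 27 that were not called. CCAAT was found in 19 of 41 (46.3%), against 39.7% of all genes, in 6 of the 12 that were higher and in both that were lower. PSMD7 and PSME3, which differed in opposite directions, thus both hold a CCAAT box and no TGACNNNGC in their windows. Genes with several starts count once, if any window holds the motif.

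The lines were also compared under FK866. Of the 48 genes, 9 were higher and 3 lower in FK866-treated CEM RES than in FK866-treated CEM PA (25%), against 35.5% of all genes, 18.6% higher and 16.9% lower. The median was 0.12 for proteasome genes and 0.09 for all genes. Genes called in the same direction with mock and with FK866 numbered 8 of 48 (16.7%, background 28.0%): PSMA1, PSMA2, PSMA3, PSMB2, PSMD13, PSME3 and PSMG4 were higher and PSMD7 lower. Of these, PSMA3, PSMD7, PSME3 and PSMG4 kept both calls with any 1 array left out. Without CEM PA FK866 replicate 1 the calls of PSMA1, PSMA2 and PSMD13 with FK866 were lost (adjusted p = 0.165, 0.314 and 0.154). That of PSMA2 was also lost without CEM RES FK866 replicate 3 (0.0595), that of PSMD13 without CEM PA FK866 replicate 2 or CEM RES FK866 replicates 2 or 3, and that of PSMB2 with mock as given above. These are 50% of the 16 called with mock and 66.7% of the 12 called with FK866, where all genes give 58.8% and 79%. The double threshold was passed by 7 genes, 6 of them higher (14.6%, background 29.6%), and the arrays did not overlap in 27 (56.2%, background 57.7%).

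PSME3 was 3.36-fold and PSMA3 2.31-fold higher in this comparison, and PSMD7 was lower by a log2 difference of -1.08 ± 0.15 (SE, adjusted p = 0.00028). Called with FK866 and not with mock were PSMA4 (0.91) and PSMG3 (0.73), both higher, and PSMB6 (-0.54) and PSMG2 (-0.67), both lower. Each of the 4 lost its call when single arrays were left out. For PSMB6 these were CEM PA FK866 replicate 1 (adjusted p = 0.273) and CEM RES FK866 replicates 1 and 2 (0.0641 and 0.0529), for PSMG2 both CEM PA FK866 arrays (0.142 and 0.0667), and for PSMG3 CEM PA FK866 replicate 2 (0.244) and CEM RES FK866 replicates 2 and 3 (the latter 0.0581). PSMB6 stood at 16.47 and 16.14 in CEM PA with FK866 and at 15.60, 15.76, 15.83 and 15.83 in CEM RES with FK866. This comparison leans on the 2 arrays of CEM PA with FK866. Without replicate 1 of them 6 genes were called. Leaving out replicate 2 of them, or replicate 2 or 3 of CEM RES with FK866, gave 8. PSMA4 lost the call when any of 10 single arrays was left out.

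FK866 itself changed no proteasome gene by the adjusted test in either line. In CEM PA 0 of 48 were called (background 0.511%), 2 had an unadjusted p below 0.05 (4.17%, background 13.5%) and 0 passed the double threshold (background 5.47%) in limma. These 2 were PSMC6, a regulatory ATPase, and PSMD7. The differences ran from -0.36 in PSMG4 to 0.43 in PSMC6, with a median of 0.12 against -0.02 for all genes, and 34 of 48 lay above 0. A dimmer probe of PSMG4 gave 0.42, which was not called. PSMC6 stood at 12.44, 12.31 and 12.31 with mock and at 12.81 and 12.77 with FK866, without overlap, a log2 difference of 0.43 ± 0.20 (SE, adjusted p = 0.37). PSMG2, an assembly chaperone, stood at 11.85, 11.26 and 11.47 against 11.99 and 11.84, with 0.39 ± 0.21 (SE, adjusted p = 0.445). PSMB6 stood at 16.17, 15.86 and 15.74 against 16.47 and 16.14, with 0.38 ± 0.19 (SE, adjusted p = 0.40). The arrays did not overlap in 8 genes (16.7%), where all genes give 34.4%.

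Directions in CEM PA differed between the scan sessions. In the first, 1 mock and 1 FK866 array, 22 of 48 differences lay above 0, and in the second, 2 mock and 1 FK866 array, 35 did. Over both, all 6 regulatory ATPases and all 5 activators and inhibitors lay above 0, but in the first session 1 of the 6 ATPases (PSMC6) and 2 of the 5 activators and inhibitors (PSME4 and PSMF1) did. The sign was the same in both sessions in 29 genes. PSMC6 differed by 0.36 and 0.46, PSMD7 by 0.40 and 0.43 and PSMB6 by 0.29 and 0.34 in the sessions. The median SE of the 48 differences was 0.19, with 2 against 3 arrays.

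In CEM RES 0 of 48 genes were called with FK866, as were 0 of all genes (background 0%). By limma's unadjusted p below 0.05, 1 of 48 passed (2.08%, background 4.78%), and 0 passed the double threshold (background 1.34%). The median difference was 0.01. That gene was PSME1, with mock arrays at 10.89, 10.86, 10.95 and 10.84 and FK866 arrays at 10.54, 10.76, 10.68 and 9.82. All 4 FK866 arrays lay below the mock arrays, replicate 4 far below the other 3, and the log2 difference was -0.43 ± 0.19 (SE, adjusted p = 0.996). It was the 1 gene of 48 without overlap (background 2.52%). PSMB8 had -0.23 ± 0.14 (SE), PSMB9 -0.03 and PSMB10 -0.08, none of them called.

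The difference between the responses, FK866 against mock in CEM RES minus the same in CEM PA, was called in 0 of 48 genes (background 0.131%), and 0 had an unadjusted p below 0.05 in limma (background 11.1%). It ran from -0.51 in PSME1 to 0.44 in PSMC3IP. For the immunoproteasome it was 0.03 in PSMB8 with a 95% interval from -0.49 to 0.54, -0.19 in PSMB9 with one from -0.71 to 0.33, and -0.05 in PSMB10 with one from -0.57 to 0.47.

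**Figure D4:**
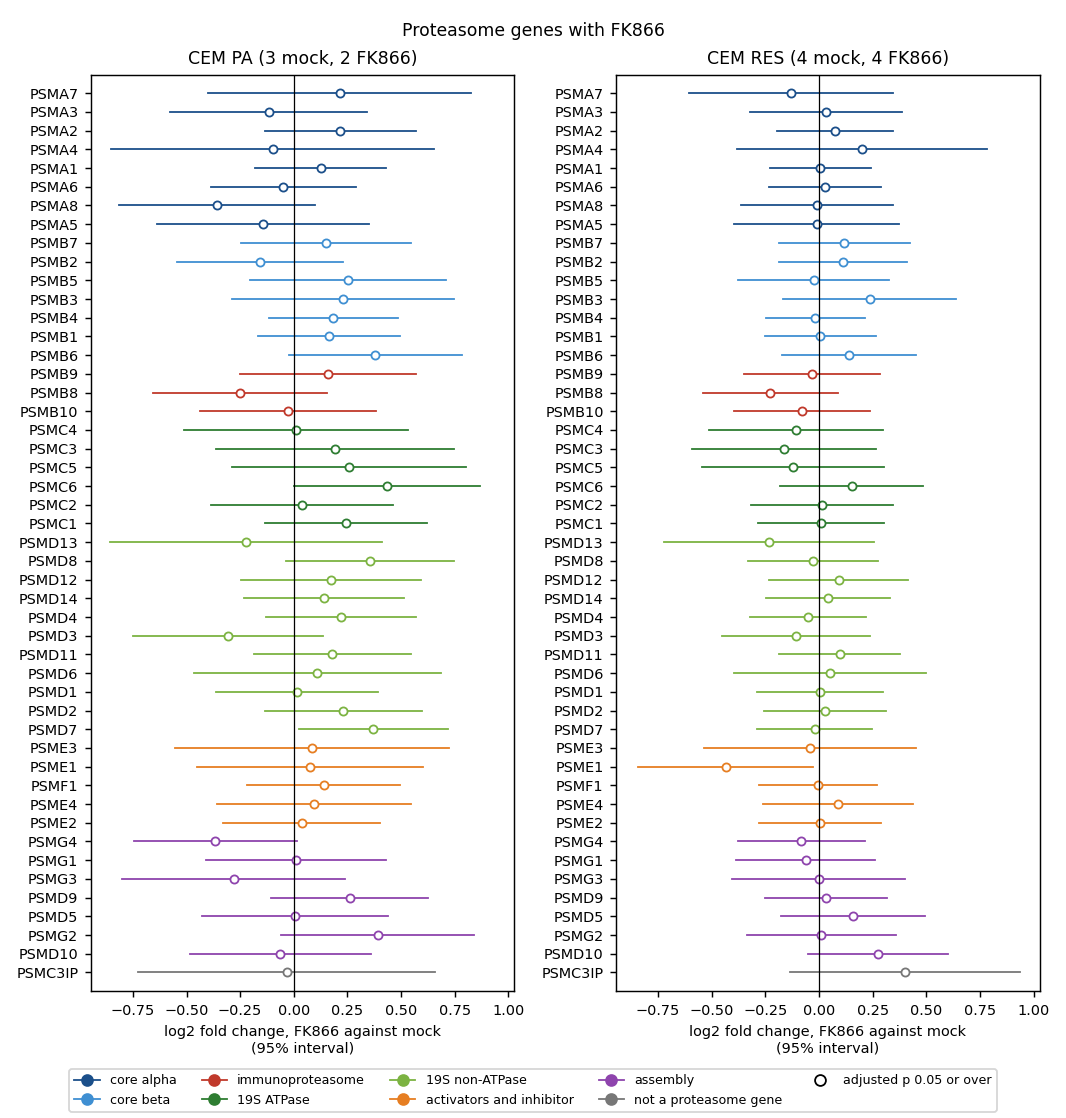
log2 fold change of each of the 48 tested genes with FK866 against mock in CEM PA (left) and in CEM RES (right), with 95% intervals and the order of genes used for the mock lines. All points are open, as 0 genes were called in either line, with a median absolute value of 0.17 in CEM PA (3 mock and 2 FK866 arrays; all genes 0.24) and 0.06 in CEM RES (4 and 4 arrays; all genes 0.14).

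Proteasome genes moved together from array to array within a group. After the mean of its group was taken from each value, the mean correlation between pairs of the 48 genes over the 13 arrays was 0.26, against 0.01 between pairs of all genes without missing values. The proteasome genes were bright, with a median log2 signal of 14.02 against 8.81 for all genes tested, and the part of brightness in this correlation, and in the smaller absolute differences than those of all genes, was not tested. It was 0.74 among the 6 regulatory ATPases, 0.42 among the 3 immunoproteasome subunits, 0.31 among the 15 constitutive core subunits, 0.18 among the non-ATPase subunits and 0.01 among the 7 assembly factors. In the ATPases replicate 3 of mock CEM RES was the highest array of its group in all 6 genes, with PSMC3 at 14.39 and PSMC4 at 13.80. Replicate 4 of CEM RES with FK866 held the lowest PSMC2, PSMC3 and PSMC5 of its group, 13.55, 13.41 and 11.58. Only the group mean was taken out, so differences between the scan sessions of CEM PA stay in these values. In mock CEM PA all 6 ATPases were lower in the second session than in the first, from -0.13 in PSMC6 to -0.68 in PSMC5. The pairs share their arrays, normalization and groups, and the parts of scan session and array quality in these values were not tested.

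Probes of the same gene did not always give the same difference. Of the 12 genes with more than 1 kept probe, 8 had probes on both sides of 0 between the mock lines, and 0 had probes called in both directions. PSMD1, the largest scaffold subunit of the base, had 2. The brighter one, at the 3′ side of the gene (chr2:232037369-232037428 on hg19), gave -0.16 (adjusted p = 0.39). The dimmer one, whose mapped ends lie farther apart than a probe is long (chr2:232011055-232018321), ran from 10.75 to 11.10 in mock CEM PA and stood in mock CEM RES at 12.26, 12.36, 12.67 and 12.36, without overlap and with a difference of 1.46 (adjusted p = 0.00010). For PSME4 the brighter probe gave 0.29 and the dimmer -0.81 (adjusted p = 0.00078). PSMD5, an assembly chaperone of the base, had 3 probes at -0.11, 0.48 and -0.96, the last of them called. In PSMF1 4 probes ran from 0.23 to 0.77, 3 of them called as higher, and in PSMG4 2 probes gave 0.67 and 0.91, both called. With FK866 against mock in CEM PA the 2 probes of PSMG4 went opposite ways, -0.36 and 0.42. PSMD10 was lower in the probe that stood for it and gave -0.33 and 0.01 in the other 2, which were not called. The 5 genes past the double threshold between the mock lines, PSME3, PSMA3, PSMA7, PSME1 and PSMD13, have only 1 probe each. No other probe could be set beside their differences. The probes of PSMA3, PSME1 and PSMD13 also have mapped ends farther apart than a probe is long.

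**Figure D5:**
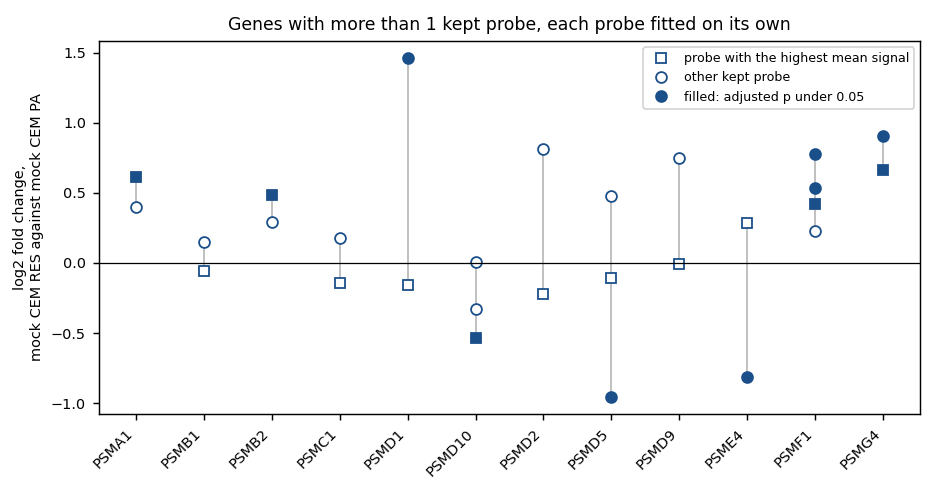
log2 fold change between the mock lines for each kept probe of the 12 genes with more than 1, squares for the probe with the highest mean signal and circles for the others, filled where the adjusted p over all probes was below 0.05. PSMD1 spans from -0.16 to 1.46 and PSMD5 from -0.96 to 0.48, while the probes of PSMF1 and PSMG4 all lie above 0.

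Partners of the proteasome were taken from short lists of known genes. Of 10 tested proteasome partners, 3 were higher and 1 lower in mock CEM RES, where 47.7% of all genes were called. AKIRIN2, needed for import of proteasomes into the nucleus, was 2.09-fold higher (log2 difference 1.06 ± 0.22 SE, adjusted p = 0.0020), at 8.65 ± 0.18 in mock CEM PA (SD, n = 3) and 9.71 ± 0.43 in mock CEM RES (SD, n = 4). USP14, a deubiquitinase of the regulatory particle, was lower by -0.92 ± 0.20 (SE, adjusted p = 0.0023). UCHL5 of the same list was higher by 0.56 ± 0.19 (SE, adjusted p = 0.026). Between the FK866-treated lines UCHL5 was called at 0.65 (adjusted p = 0.030). AKIRIN2 (0.59, adjusted p = 0.085) and USP14 (-0.39, adjusted p = 0.195) were not called there. POMP, the chaperone that matures the beta ring, had -0.19 ± 0.23 (SE, adjusted p = 0.51).

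NFE2L1 was lower in mock CEM RES. It stood at 12.99, 12.30 and 12.70 in mock CEM PA and at 12.09, 11.82, 11.48 and 11.98 in mock CEM RES, a log2 difference of -0.82 ± 0.21 (SE, adjusted p = 0.0062). Of 10 tested genes of its route, 1 was higher and 3 lower, again beside 47.7% of all genes called. DDI2, the protease that activates NFE2L1, was higher by 2.27 ± 0.34 (SE, adjusted p = 0.00026), with 2 of 3 mock CEM PA arrays and all 4 mock CEM RES arrays well above background. It was dim, at 4.17, 4.09 and 4.15 in mock CEM PA and 6.11, 6.83, 6.29 and 6.39 in mock CEM RES. NGLY1, a bright gene of the same list, went the other way without overlap. It stood at 15.50, 15.56 and 16.26 in mock CEM PA and at 14.83, 14.88, 14.78 and 14.96 in mock CEM RES. MAFF, a small MAF partner, was lower by -1.55 ± 0.25 (SE, adjusted p = 0.00040).

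Of 10 tested genes of ubiquitin supply and shuttles, 4 were higher and 0 lower by the adjusted test, a share under the 47.7% of all genes called. UBQLN4, a shuttle that brings substrates to the proteasome, was 2.69-fold higher (adjusted p = 0.00044) and UBA1, the main ubiquitin-activating enzyme, 1.98-fold higher (adjusted p = 0.00040). Of 7 genes of the interferon route, 1 was higher and 3 lower, against the same 47.7%. TAP1, which shares its promoter region with PSMB9 and pumps the cut peptides into the endoplasmic reticulum, had a difference of -0.03 ± 0.14 (SE, adjusted p = 0.88). TAP2, its partner, was lower by -0.65 (adjusted p = 0.0076) and NLRC5, a transactivator of the class I antigen route, by -0.80 (adjusted p = 0.0090). With FK866 against mock, 0 genes of these 4 lists were called in either line. The share of all genes called was 0.511% in CEM PA and 0% in CEM RES.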

How the data were processed

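The authors deposited, for each of the 13 arrays, the intensity of every spot from Agilent Feature Extraction, corrected for background within the array, and their own quantile normalized log2 values as 1 table. The analysis started from the intensities, with the deposited log2 table as a variant. After log2 transformation, outlier spots were set to missing, control spots removed, arrays quantile normalized and spots of a probe averaged. Of 34127 probes, 22754 passed the filter, being well above background on all arrays of a group, and the brightest kept probe stood for its gene. Names of genes are the design's and can be old. The level of 1 cell type marker is not reported here.

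The 4 groups were fitted in 1 model with limma 3.58.1 in R 4.3.3 (prior degrees of freedom 3.16), and 5 contrasts were taken. P values come from the two-sided moderated test of limma, and adjusted p are Benjamini-Hochberg values over the 17597 genes. The limma fit alone was tried on simulated arrays with independent noise and few changed genes. That trial did not cover normalization, shared deviations of replicates or scan sessions. Arrays give no counts, so their number limits the precision. The p values set each difference against the spread of arrays within groups, which the model shares over the 4 groups. Named are the catalytic subunits and their counterparts and the 2 genes of each class with the largest difference between the mock lines. The 3 genes with the largest response to FK866 in CEM PA and 2 or 3 genes per partner list are named too. Other members, partners and probes are named for their place in a class or after their values were seen. Members, lists and tests were chosen with earlier results of these data known. Deviations from the group means correlated between equally numbered mock and FK866 arrays in CEM RES at 0.217, 0.390, 0.484 and 0.295 and in CEM PA at 0.440 and 0.343, so a fit with a replicate block was run as a variant. Files were parsed in Python 3.11.15 (pandas 2.3.3, numpy 2.4.6) and plots drawn in matplotlib 3.10.9.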

Additional observations from a re-analysis of the deposited data

Results flagged for a closer look

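Among 118 sets of 4 CEM RES arrays, 48 proteasome genes and 11 partner genes each with mock and with FK866, 12 held an array that stood apart from the other 3, where chance gives about 1 in 20. The gap to the nearest array, over the range of the group, was above Dixon's 95% critical value. In mock CEM RES, replicate 3 was high in 4 genes: PSMA2 (14.86, others up to 14.63), PSMA8 (10.60, others up to 10.28), PSMB5 (14.80, others up to 14.37) and PSME4 (10.79, others up to 10.34). Replicate 4 was low in PSMA7 (15.13, others from 15.65), replicate 1 high in PSMD1 (14.00, others up to 13.77) and replicate 2 low in PSMD10 (11.56, others from 11.91). With FK866, replicate 4 was low in PSMA4 (14.42, others from 14.85) and PSMD2 (15.65, others from 15.95) and high in PSMD5 (10.85, others up to 10.39). Replicate 1 was low in PSMB1 (16.31, others from 16.42), and replicate 2 was high in DDI2 (7.57, others up to 6.10).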

How the results depend on the processing

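The count of proteasome genes called stayed at 0 for FK866 in CEM PA, for FK866 in CEM RES and for the difference between the responses under all alternatives run, including each array left out in turn (0 to 0). Between the mock lines it was 16, and 11 to 20 under other processing and fits, 11 to 17 with 1 array left out, and 5 by the double threshold. Without CEM PA mock replicate 3 it was 11. Between the FK866-treated lines it was 12, and 10 to 18 under other processing and fits, 6 to 15 with 1 array left out, and 7 by the double threshold. With a replicate block the counts were 16 and 15, and of the genes called between the lines only PSMA4 with FK866 lost its call (adjusted p = 0.072 with the replicate block).

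Of the 28 single differences called between the lines, 14 kept an adjusted p below 0.05 under every alternative other than the double threshold, and 0 changed sign. Between the mock lines these were PSMA1, PSMA2, PSMA3, PSMA7, PSMD7, PSMD13, PSME1, PSME3 and PSMG4, and with FK866 PSMA3, PSMB2, PSMD7, PSME3 and PSMG4. Calls lost without 1 array between the mock lines were PSMB7 (CEM PA mock replicate 3, adjusted p = 0.081, or CEM RES mock replicate 3, 0.050), PSMB2 (CEM PA mock replicates 2, 0.064, or 3, 0.070), PSMC4 (CEM PA mock replicates 2 and 3, 0.086 and 0.093, CEM RES mock replicates 3 and 4, 0.087 and 0.078), PSMG1 (CEM PA mock replicate 3, 0.056), PSMD10 and PSMD8 (CEM PA mock replicate 1, 0.076 and 0.073) and PSMF1 (CEM PA mock replicate 3, 0.10, or CEM RES mock replicate 1, 0.055). With FK866 the calls lost without 1 array were PSMB6, PSMA1, PSMA2, PSMD13, PSMG2, PSMA4 and PSMG3, by the arrays named in the report. Other settings also ended calls between the mock lines. Fitting only the groups compared ended PSMB7 (0.056), PSMB2 (0.052), PSMC4 (0.066), PSMD8 (0.052) and PSMF1 (0.076), array weights PSMB7 (0.078), and the mean of the probes PSMB2 (0.052) and PSMD10 (0.22). No filter, the deposited table and the session block each ended PSMC4 (0.056, 0.054 and 0.054). With FK866, the mean of the probes ended PSMA1 (0.081), no filter PSMB6 (0.052), the 75th percentile PSMA2 (0.068), fitting only the groups compared PSMA2 (0.065), and 7 settings other than a left-out array PSMA4 (0.051 to 0.088). The 48 tested genes were well above background, PSMB11 was too dim to test, and the cause of the other changes was not tested.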
